A study of Mus musculus with 8 samples.

Results

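The cytosolic translation initiation factors (eIFs) and elongation factors (eEFs) were examined in AML12 cells, a hepatocyte line derived from mouse liver, after exposure to a pulsed magnetic field. Members were all genes whose symbol begins with Eif followed by a digit from 1 to 6 or with Eef followed by 1 or 2, which also takes in the kinases, methyltransferases and binding proteins named after these factors. Symbols that mark pseudogenes with "-ps" were left out, 13 in all. The rule gave 72 genes of the 55401 in the deposited tables. It used names and no measured value.

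Initiation factors bring the charged initiator tRNA and the mRNA to the small ribosomal subunit, find the start codon and release the subunits to join, and elongation factors then deliver aminoacyl-tRNA and move the ribosome along the mRNA. Control of this machinery acts to a large part on the proteins. Phosphorylation of the alpha subunit of eIF2 limits initiator tRNA, binding proteins sequester the cap-binding factor eIF4E below mTORC1, and a dedicated kinase slows elongation through eEF2. Hepatocytes, which export large amounts of plasma protein, carry a high load of translation.

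Poly(A)-selected RNA was sequenced from 8 samples of AML12 cells, with no genetic change between the groups in the labels. Each sample is called a dish here, although neither the labels nor the sequencing methods say whether each was a separate culture dish. The 4 exposed dishes were kept for 1 h under Opti-ELF-WMF, the extremely low frequency weak magnetic field of the study, in which pulses of 4 msec with a peak of 100 mG step through frequencies from 1 to 8 Hz. The 4 control dishes stood in an identical setup with the stimulator off, in another incubator of the same model, so field and incubator cannot be told apart. The paper's general methods describe control and exposed cells as prepared together from 1 batch, which the labels do not state for these dishes. The p-values measure only the spread between these dishes, which may be technical. The question was which transcripts differed after the first hour.

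Values are in TPM, a measure of transcript abundance whose values divide reads by transcript length and scale every dish to the same total, so library depths are unknown and no counting interval can be given. Differences are those of log2(TPM + 1), exposed minus control, and understate the change of low genes. Of the hepatocyte markers, Trf, for transferrin, was at 823 TPM, Hnf4a, a liver transcription factor, at 187 TPM and Krt8 at 2248 TPM in control dishes, while Alb, for albumin, was at 55.1 TPM and Afp at 1.03 TPM. Of the markers of bile duct cells, the keratins Krt19 and Krt7 were at 1153 and 70.4 TPM, Sox9 at 30.8 TPM and Epcam at 0.07 TPM. Summed markers of mesenchymal cells lay between 0.52 and 1.96 TPM, of macrophages between 1.6 and 2.55 TPM and of endothelial cells between 0 and 0.09 TPM, with Cdh5, Adgre1 and Clec4f at 0 in every dish.

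The promoters of several members share a short sequence, the E-box CACGTG, a motif bound by MYC and related factors and identical on both strands. It was searched because translation factor genes are textbook MYC targets, and it is shown here for the cap-binding complex eIF4F (Eif4e, Eif4a1 and Eif4g1) and 3 further abundant members. Windows were those of RefSeq on GRCm38.p6, from 250 bases before to 50 after each transcription start. Each stretch holds 30 bases with the E-box in capitals, written 5′ to 3′ on the gene's strand, and each position counts from the start site to the first base of the motif.
Eif4e, chr3:138527028-138527057, plus strand, position -228: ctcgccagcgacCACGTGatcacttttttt
Eif4e, chr3:138527192-138527221, plus strand, position -64: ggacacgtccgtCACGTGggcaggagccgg
Eif4a1, chr11:69672595-69672624, minus strand, position -189: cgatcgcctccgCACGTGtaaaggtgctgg
Eif4g1, chr16:20672661-20672690, plus strand, position -54: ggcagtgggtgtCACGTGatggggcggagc
Eif4g1, chr16:20672730-20672759, plus strand, position 16: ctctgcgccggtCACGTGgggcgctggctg
Eef2, chr10:81176576-81176605, plus strand, position -43: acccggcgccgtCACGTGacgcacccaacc
Eif4h, chr5:134639488-134639517, minus strand, position -96: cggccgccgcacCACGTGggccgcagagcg
Eif5a, chr11:69920791-69920820, minus strand, position -178: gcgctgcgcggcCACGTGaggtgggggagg
The E-box stood in 16 of the 67 windows of tested members (23.9%), called member windows below. It stood in 7.15% of all 32851 windows and 10.2% of the 11598 windows of tested genes. RefSeq windows were matched for 55 of the 72 members, and those of the 52 tested ones were searched. The E-box was found in 14 of them: Eef1akmt4, Eef1aknmt, Eef2, Eef2k, Eif1b, Eif3a, Eif3f, Eif3k, Eif4a1, Eif4e, Eif4g1, Eif4h, Eif5a and Eif5a2.

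The ETS motif CCGGAAG, read on both strands, stood in 29.9% of member windows, 8.86% of all windows and 18.7% of those of tested genes. It is shown for Eef1b2, where it begins just inside the transcript, and for Eif3m, on whose sense strand it also reads.
Eef1b2, chr1:63176821-63176850, plus strand, position 2: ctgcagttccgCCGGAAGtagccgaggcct
Eif3m, chr2:105017064-105017093, minus strand, position -55: ctgtggctgacCCGGAAGcggttgtgcgta
The TATA motif TATAAA was in 5.97% of member windows, 13.6% of all windows and 7.11% of tested genes' windows. A run that starts with C and goes on with at least 7 pyrimidines, as found at the start of many mRNAs of the translation machinery, was within 50 bases of the start in 34.3% of member windows and 28.8% of all windows. Its share in the windows of tested genes was not counted. These matches describe letters and not binding, and they are not tests.

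In control dishes the members together made up 2.65% ± 0.03 of all TPM (SD, n = 4). Of the 72 members, 65 were at 1 TPM or more in 4 or more dishes and were tested. Their mean TPM over all dishes was under 10 for 4, between 10 and 100 for 24, between 100 and 1000 for 31 and above 1000 for 6. Eef1a1, which encodes the factor that carries aminoacyl-tRNA to the ribosome, alone made up 37.5% of the members' summed TPM.

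**Figure D1:**
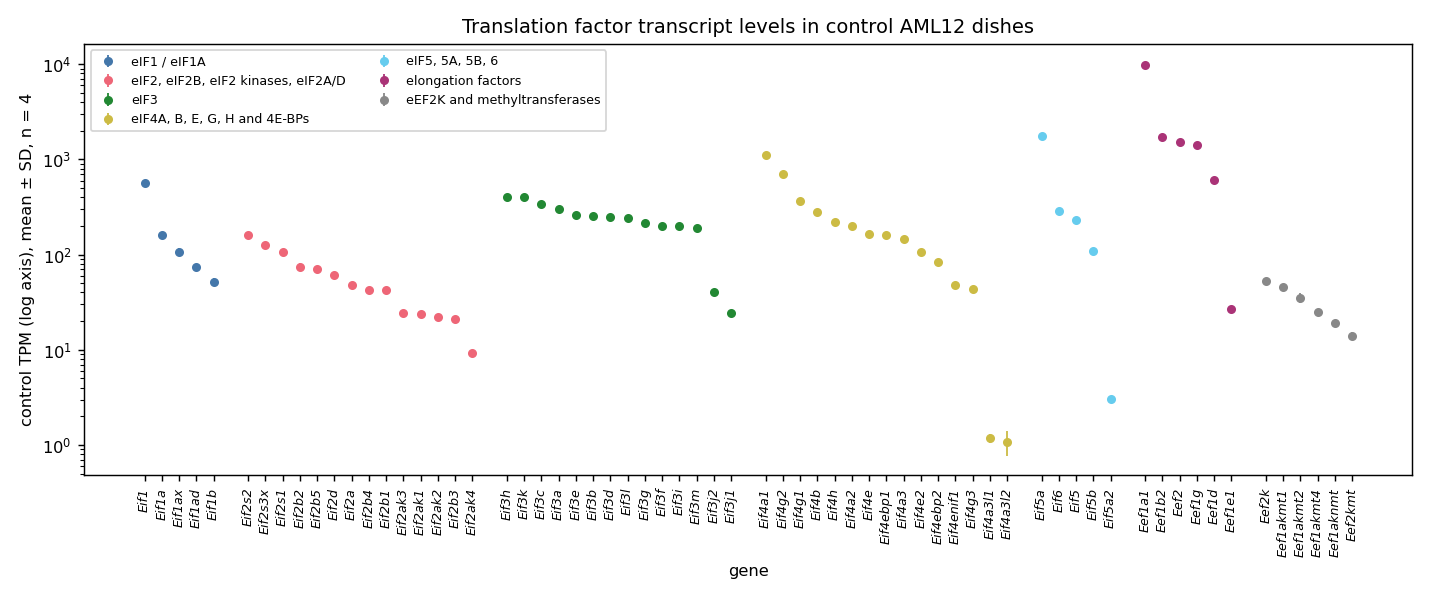
Mean TPM in control dishes (log axis, ± SD, n = 4) of the 65 tested members, grouped by role and ordered by level within each role. Eef1a1 is the highest at 9882 TPM, followed by Eif5a, Eef1b2, Eef2, Eef1g and Eif4a1, and the 12 core eIF3 subunits lie within 2.09-fold of each other.

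Of the 5 members with the highest levels, 4 were elongation factors. In control dishes Eef1a1 was at 9862, 9497, 10054 and 10113 TPM, and in exposed dishes it was at 10678, 10878, 10800.3 and 10399.9 TPM. The difference was 0.11 on the log2 scale. The groups did not overlap, and the Benjamini-Hochberg adjusted p in limma was 0.134. Its 9 near-identical copies, all listed above 0, summed to a mean of 48.3 TPM.

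Eef2, the factor that moves the ribosome by 1 codon, was at 1517, 1537, 1511 and 1543 TPM in control dishes and at 1638, 1710.2, 1593 and 1587 TPM in exposed dishes. Every exposed dish was above every control dish (limma with Benjamini-Hochberg adjusted p = 0.157). Eef2k, whose kinase inhibits eEF2, was at 53.3 ± 3.29 TPM in control and 52.1 ± 3.08 TPM in exposed dishes (SD, n = 4), with overlapping groups.

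The eEF1B complex recharges eEF1A with GTP. Its exchange subunit Eef1b2 was at 1739.6, 1686, 1722 and 1712 TPM in control dishes and at 1936, 1876, 1843 and 1786 TPM in exposed dishes. Higher values were found in all exposed dishes, by 8.46% on average (limma with Benjamini-Hochberg adjusted p = 0.122). Eef1g, its structural subunit, was at 1428, 1466, 1363 and 1407 TPM in control dishes and 1526, 1536, 1471 and 1458 TPM in exposed dishes, where the lowest exposed dish lay below the highest control dish. Near-identical copies of Eef1g summed to a mean of 253.5 TPM, so its level is uncertain by the way reads were shared out. Eef1d, the second exchange subunit, was at 619, 605, 572 and 627 TPM in control dishes and 677, 641, 615 and 604 TPM in exposed dishes, and these groups overlapped. Eef1e1, which belongs to the aminoacyl-tRNA synthetase complex, was at 26.5 TPM in control and 26.1 TPM in exposed dishes. The methyltransferases of elongation factors numbered 6, of which 5 were tested, at 13.9 to 47.9 TPM, and none had an unadjusted limma p under 0.05.

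Across the 65 tested members, 58 (89.2%) had a higher mean log2 value in the exposed dishes and 7 a lower one. The share higher was 63.7% among all 12122 tested genes. It was 86.6% among the 1628 genes with a mean TPM of at least 100 and 86.4% among tested cytosolic ribosomal protein genes. After median-of-ratios scaling the members' split was 53 to 12, where 52.8% of all tested genes and 76.7% of those 1628 were higher. After upper-quartile scaling it was 51 to 14, where these shares were 47.0% and 70.3%. No member passed an adjusted p of 0.05 in limma with Benjamini-Hochberg adjustment, nor did any other gene (0% of all tested genes), and the smallest adjusted p of a member was 0.122. The unadjusted limma p was under 0.05 for 1894 of all tested genes. Among members it was under 0.05 for 29 with higher values, read against 12% of all tested genes, and for 1 with lower values, Eif4a2, read against 3.65%. The 4 exposed values lay above all 4 control values for 20 members (8.01% of all tested genes) and below all of them for 1 (1.86%). The median difference of the members was 0.07, and that of all tested genes 0.03.

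**Figure D2:**
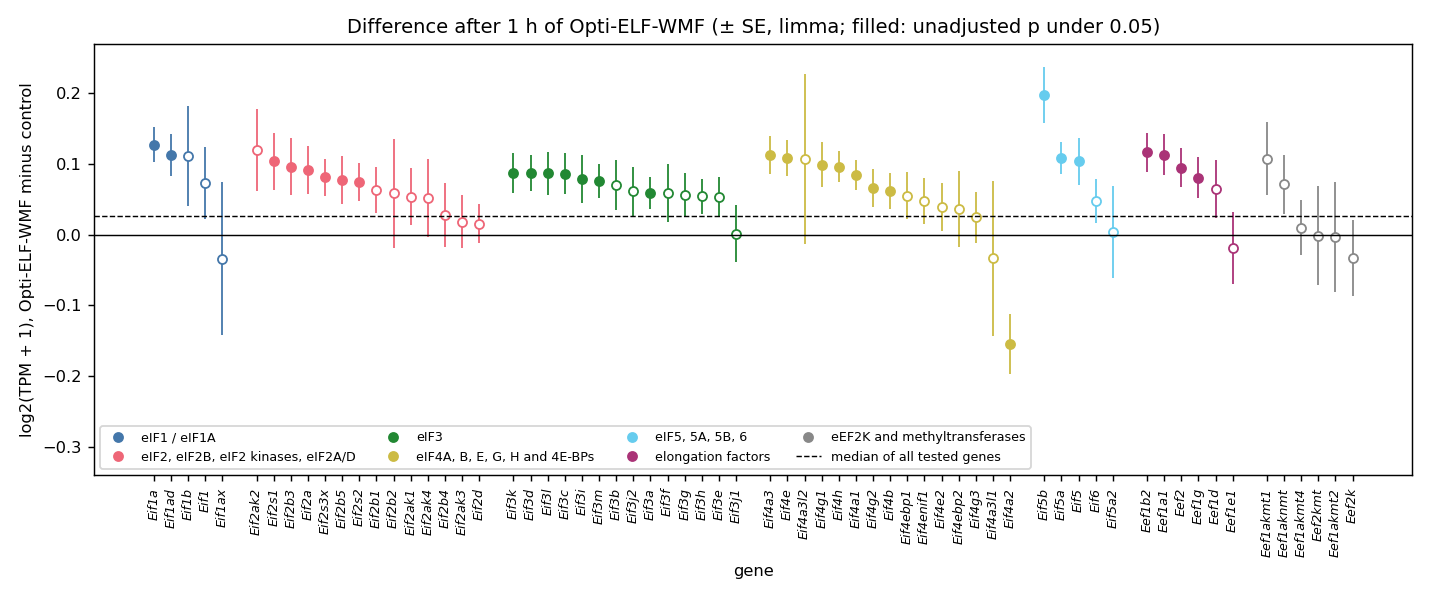
Difference in log2(TPM + 1), exposed minus control, with its limma SE for the 65 tested members (4 dishes a group), grouped by role, with filled points for an unadjusted p under 0.05 and a dashed line at the median of all tested genes. Most points lie above the dashed line at 0.03, Eif5b is the highest at 0.20 and Eif4a2 the lowest at -0.15.

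Of the tested members, 37 had a mean TPM of at least 100 and 28 were below it. Among the 1628 genes with a mean TPM of at least 100, a limit chosen after the data were examined, 38.2% had higher values with an unadjusted limma p under 0.05 and 25.9% were non-overlapping and higher. Of the 37 members of this level, 25 (67.6%) and 18 (48.6%) did so. Their median difference was 0.08 on the log2 scale, beside 0.06 for all genes of this level. Of 84 cytosolic ribosomal protein genes, 81 were tested, and 27 of them had higher and 2 lower values at an unadjusted p under 0.05, with a median difference of 0.05.

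**Figure D3:**
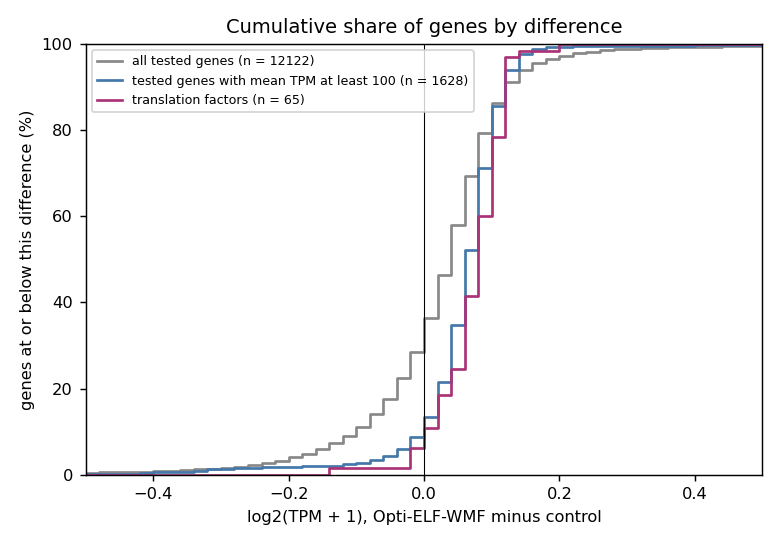
Cumulative share (%) of genes at or below each difference in log2(TPM + 1), exposed minus control, for all 12122 tested genes, for the 1628 with a mean TPM of at least 100 and for the 65 tested members. Through the middle of the range the curve of the members lies to the right of both others: 60% of members differed by 0.08 or less, against 71.2% of the abundant genes and 79.3% of all genes.

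The sum of the members' TPM was 2.66%, 2.61%, 2.65% and 2.68% of the total in the control dishes and 2.84%, 2.89%, 2.83% and 2.77% in the exposed dishes. All exposed dishes were above all control dishes, by 0.18 percentage points on average, of which 0.08 points came from Eef1a1. Transcripts of the mitochondrial genome moved the other way. Their share was 8.94% ± 0.34 in control and 7.04% ± 0.76 in exposed dishes (SD, n = 4), and because TPM has a fixed total, a smaller share there raises all other genes. Exposed replicate 2 had the lowest mitochondrial share, 5.99%, and held the highest value of 37 of the 65 tested members. Exposed replicates 1, 3 and 4 had shares of 6.96%, 7.69% and 7.52% and held the highest value of 9, 8 and 3 members. After TPM was rescaled without mitochondrial genes, 51 members were higher and 14 lower. Under this rescaling 49.1% of all tested genes and 72.7% of those with a mean TPM of at least 100 were higher. The median difference of the members was 0.041 (all tested genes, -0.0015). It was 0.029 for the genes with a mean TPM of at least 100 and 0.018 for cytosolic ribosomal protein genes. Of the members, 16 had higher values at an unadjusted p under 0.05, where 5.72% of all tested genes did. The counts were 17 after median-of-ratios scaling (6.79% of all tested genes) and 15 after upper-quartile scaling (4.85%). Among genes with a mean TPM of at least 100, the share at this p was counted only before these scalings. All 29 members named by the p-value still had higher means under each of these scalings. They had been chosen as higher in these same data, with log2 differences of 0.0592 or more, so this outcome is no separate support.

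The 6 genes of the proliferation list (Mki67, Top2a, Pcna, Mcm2, Ccnb1 and Cdk1) summed to between 1315 and 1360 TPM in control dishes and between 1387 and 1455 TPM in exposed dishes, and 5 of them had higher values at an unadjusted limma p under 0.05 (2 to 3 under the other scalings). Higher values at this p were found for 12% of all tested genes. The share was 38.2% among those with a mean TPM of at least 100, a level that all 6 genes exceeded. Hepatocyte markers differed both ways. Of 12, Krt18 (difference 0.09) and Krt8 (0.07) were higher without overlap and Alb (-0.15) was lower, each at an unadjusted limma p under 0.05. The part of the mitochondrial share, the proliferation markers and the hepatocyte markers in the members' differences was not tested beyond the rescaling.

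Eif4a1 and Eif4a2 encode closely related RNA helicases of eIF4F, which unwind the mRNA leader, and their transcripts differed in opposite directions. Eif4a2 (ENSMUSG00000022884, chr16:23107444-23114136, GRCm38, plus strand) was at 188, 205, 216 and 196 TPM in control dishes and at 183, 173, 182 and 184 TPM in exposed dishes. The exposed values were all under the lowest control value, and the difference was -0.15 ± 0.04 on the log2 scale (SE, limma with Benjamini-Hochberg adjusted p = 0.148). Eif4a1 (ENSMUSG00000059796, chr11:69666936-69672423, minus strand) was at 1102, 1108, 1104 and 1114 TPM in control dishes and at 1143, 1200.1, 1177 and 1175 TPM in exposed dishes. Here every exposed dish lay above every control dish (difference 0.08, limma with Benjamini-Hochberg adjusted p = 0.134).

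The share of Eif4a2 in the sum of both does not depend on how TPM is scaled. It was 14.6%, 15.6%, 16.4% and 14.9% in control dishes and 13.8%, 12.6%, 13.4% and 13.6% in exposed dishes. The means were 15.4% and 13.3%, without overlap between groups (exact two-sided permutation p = 0.0286, the smallest that 4 against 4 allows). Adjusted by Benjamini-Hochberg over the 6 paralog comparisons the exact p was 0.171, so this difference did not pass the correction. Small nucleolar RNA genes lie inside both genes, and Eif4a2 overlaps Rfc4 on the other strand. The strand setting of the counting is not given in the sources used here.

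**Figure D4:**
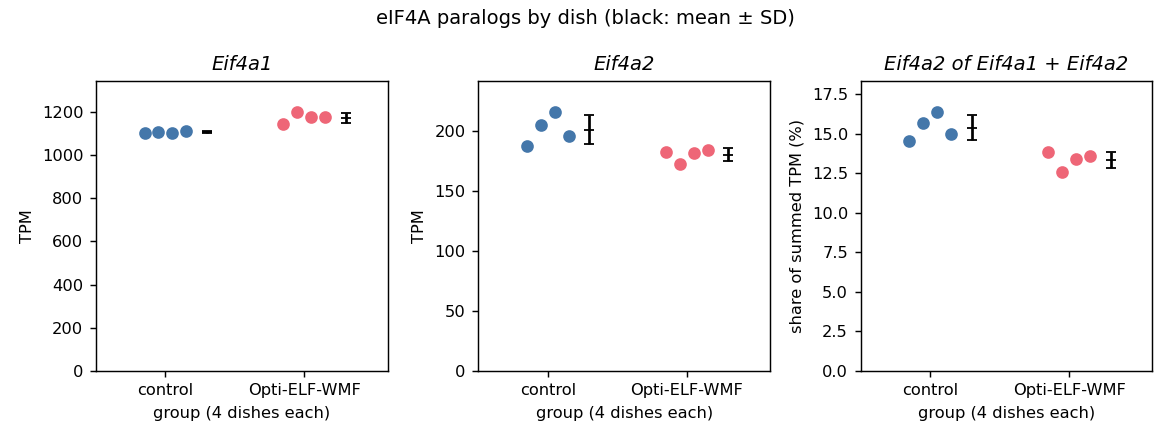
TPM of Eif4a1 and of Eif4a2, and the share (%) of Eif4a2 in their sum, in each of the 4 control and 4 exposed dishes (points, with mean ± SD in black, all axes from 0). The exposed dishes lie above the controls for Eif4a1, below them for Eif4a2, and between 12.6% and 13.8% for the share.

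Eif4a3, a related helicase that belongs to the exon junction complex, was at 150.0, 143, 141 and 145 TPM in control dishes and at 155, 158, 159 and 154 TPM in exposed dishes, without overlap (limma with Benjamini-Hochberg adjusted p = 0.123). Its near-identical relatives Eif4a3l1 and Eif4a3l2 were listed at a mean of 1.16 TPM each.

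The other 5 paralog comparisons showed no such separation. The share of Eif5a2 in Eif5a plus Eif5a2 was 0.169% in control and 0.157% in exposed dishes (exact permutation p = 0.0571, adjusted 0.171). Eif1b made up 8.43% and 8.66% of Eif1 plus Eif1b (exact p = 0.629), and Eif4ebp2 33.7% and 33.4% of Eif4ebp1 plus Eif4ebp2 (exact p = 0.8). Eef1a2, the eEF1A form of muscle and neurons, was listed at 0, 0.07, 0 and 0.02 TPM in control dishes and at 0.03, 0, 0 and 0 TPM in exposed dishes. The Y-linked Eif2s3y was at 0.09, 0.08, 0.30 and 0.41 TPM in control dishes and at 0.29, 0.10, 0.09 and 0.14 TPM in exposed dishes, while its X-linked partner Eif2s3x was at 125 to 138 TPM. The exact p of both shares, adjusted over the 6 comparisons, was 0.8.

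The cap-binding complex eIF4F joins eIF4A to eIF4E, which holds the mRNA cap, and to the scaffold eIF4G1. Eif4e was at 168, 167, 159 and 161 TPM in control dishes and 178, 178, 173 and 177 TPM in exposed dishes, without overlap (limma with Benjamini-Hochberg adjusted p = 0.123). Eif4g1 was at 360.0, 357, 366 and 375 TPM in control dishes and 369.6, 408, 389 and 396 TPM in exposed dishes, where exposed replicate 1 lay within the control range. The promoters of Eif4e, Eif4a1 and Eif4g1 hold the E-box printed above. Per unit of transcript length, the control dishes held 6.77 transcripts of Eif4a1 and 2.23 of Eif4g1 for each of Eif4e, and these ratios were 6.66 and 2.22 in the exposed dishes.

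Transcripts of the eIF4E inhibitors overlapped between groups. Eif4ebp1 was at 169, 154, 160.1 and 167 TPM in control dishes and 172, 173, 164 and 167 TPM in exposed dishes. Eif4ebp2 was at 80.9, 78.8, 85.9 and 84.9 TPM in control dishes and 76.2, 91.1, 84.0 and 88.3 TPM in exposed dishes. Their unadjusted limma p were 0.132 and 0.513. Together they amounted to 1.5 transcripts for each of Eif4e in control and 1.44 in exposed dishes. Eif4enif1, which binds eIF4E and carries it into the nucleus, differed by 0.05 on the log2 scale (limma with Benjamini-Hochberg adjusted p = 0.522).

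Among the other partners of eIF4F, Eif4h, a cofactor of the helicase, was at 221, 219.9, 218 and 215 TPM in control dishes and 235.5, 238, 233 and 228 TPM in exposed dishes. No exposed dish came down to the control range (limma with Benjamini-Hochberg adjusted p = 0.122). Eif4b, the related cofactor, was also higher without overlap, by 4.44%. Its unadjusted limma p was 0.0371 and between 0.129 and 0.233 under the 3 other scalings, while that of Eif4h stayed under 0.05. Eif4g2, a scaffold without the eIF4E-binding part, was at 704, 706, 731 and 701 TPM in control dishes. In exposed dishes it was at 725, 760.2, 764 and 726 TPM, with control replicate 3 inside the exposed range. The unadjusted limma p of Eif4g2 was 0.0317 and between 0.105 and 0.228 under the 3 other scalings. Eif4g3 was at 44.0 and 44.8 TPM and Eif4e2, a cap-binding relative, at 106 and 109 TPM in the groups' means, with unadjusted limma p of 0.512 and 0.281, and Eif4g3 turned lower under 2 of the 3 other scalings.

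Start-site selection and subunit joining held the members with the smallest p-values. Eif1a, for the factor that with eIF1 opens the small subunit for scanning, was at 164, 155, 158 and 159.8 TPM in control dishes and at 173, 173, 175 and 175 TPM in exposed dishes. All exposed dishes were above all control dishes, by 9.29% (limma with Benjamini-Hochberg adjusted p = 0.122). Eif1ax, the X-linked gene for the same factor, was at 107 ± 10.9 and 105 ± 16.1 TPM (SD, n = 4), with overlapping groups (limma with Benjamini-Hochberg adjusted p = 0.914). Eif1ad, whose product carries an eIF1A domain, was at 75.1, 72.5, 75.8 and 71.6 TPM in control dishes and 80.7, 81.8, 78.7 and 78.1 TPM in exposed dishes, without overlap. Its gene overlaps Banf1 on the other strand.

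Eif1 was at 585, 533, 574 and 549.9 TPM in control dishes and 612, 622, 596 and 531 TPM in exposed dishes, so exposed replicate 4 lay below all control dishes. Its paralog Eif1b was at 57.9, 52.5, 48.4 and 47.6 TPM in control dishes and 55.7, 51.3, 61.9 and 54.4 TPM in exposed dishes, again overlapping.

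Eif5b (ENSMUSG00000026083, chr1:37998010-38055579, GRCm38, plus strand), for the GTPase that joins the ribosomal subunits, had the largest difference of the 29 members. It was at 112, 114, 112 and 103 TPM in control dishes and at 129, 132, 125 and 121 TPM in exposed dishes. Every exposed dish lay above the highest control dish, the mean difference was 14.8%, and the log2 difference was 0.20 ± 0.04 (SE, limma with Benjamini-Hochberg adjusted p = 0.122). The gene overlaps Rev1 on the other strand. Eif5, which triggers GTP hydrolysis by eIF2, was 7.51% higher, with the lowest exposed dish just under the highest control dish. Eif6, which keeps the large subunit from joining early, was 3.43% higher (limma with Benjamini-Hochberg adjusted p = 0.498).

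Eif5a, for a hypusine-bearing factor that helps peptide bonds form at difficult sequences, was the second most abundant member. It was at 1791, 1762, 1760.1 and 1808 TPM in control dishes and 1930.3, 1964, 1889 and 1896 TPM in exposed dishes. No exposed dish came near the control range (limma with Benjamini-Hochberg adjusted p = 0.122). Eif5a2 was at 3.10, 2.98, 2.99 and 2.98 TPM in control dishes and 2.84, 3.13, 3.13 and 3.00 TPM in exposed dishes, and the sign of its difference turned under each of the 3 other scalings tried.

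The trimer eIF2 carries the initiator tRNA. Its alpha subunit gene Eif2s1 was at 107, 109.9, 102 and 104 TPM in control dishes and 113, 109, 111 and 123 TPM in exposed dishes, which overlapped. Eif2s2, for the beta subunit, was at 164, 159, 163 and 164 TPM in control dishes and 169, 166, 178 and 172 TPM in exposed dishes, and Eif2s3x, for the gamma subunit, was at 126, 125, 128 and 131 TPM in control dishes and 133, 137, 138 and 132 TPM in exposed dishes. These last 2 genes did not overlap between groups, and all 3 had higher values at an unadjusted limma p under 0.05 (0.0275, 0.0192 and 0.0121). Under the other scalings this p was kept by Eif2s3x after median-of-ratios scaling (0.0403) and by 0 of the 3 after upper-quartile scaling or rescaling without mitochondrial genes.

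The exchange factor eIF2B, which recharges eIF2, had 5 subunit genes at 22.1 to 76.3 TPM. Eif2b3 and the catalytic Eif2b5 had higher values at an unadjusted limma p under 0.05 (7.25% and 5.52%), and the other 3 did not. Neither kept this p under any of the 3 other scalings. The 4 kinases of eIF2 alpha, which answer to heme (Eif2ak1), double-stranded RNA (Eif2ak2), stress of the endoplasmic reticulum (Eif2ak3) and uncharged tRNA (Eif2ak4), lay at 9.49 to 24.3 TPM, and none had an unadjusted p under 0.05. Eif2a, for a factor that can deliver initiator tRNA without eIF2, was 6.75% higher (limma with Benjamini-Hochberg adjusted p = 0.236). Its unadjusted limma p was 0.0237 and between 0.0506 and 0.0954 under the 3 other scalings. Eif2d was 1.13% higher (limma with Benjamini-Hochberg adjusted p = 0.831) and turned lower under each of these scalings.

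The scaffold eIF3 binds the small subunit and recruits mRNA. Its 12 core subunit genes lay between 192 TPM (Eif3m) and 401 TPM (Eif3h) in control dishes, a range of 2.09-fold. All 14 genes named Eif3 had a higher mean log2 value in exposed dishes with a median difference of 0.07, although Eif3j1 turned lower under each of the 3 other scalings. Of the 14, 7 had an unadjusted limma p under 0.05, namely Eif3a, Eif3c, Eif3d, Eif3i, Eif3k, Eif3l and Eif3m, where 12% of all tested genes did. This count was 3 after median-of-ratios scaling (Eif3c, Eif3d and Eif3l), 2 after upper-quartile scaling (Eif3c and Eif3d) and 3 after rescaling without mitochondrial genes (Eif3c, Eif3d and Eif3k). Of the 7 Eif3d had the smallest p (0.00732, Benjamini-Hochberg adjusted p = 0.166), at 251, 242, 244 and 249.99 TPM in control dishes and 256, 272, 261 and 262 TPM in exposed dishes without overlap. The loosely attached Eif3j1 and Eif3j2, which are near-identical and could share reads, were at 24.6 and 40.4 TPM in control dishes, and neither had a p under 0.05.

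**Figure D5:**
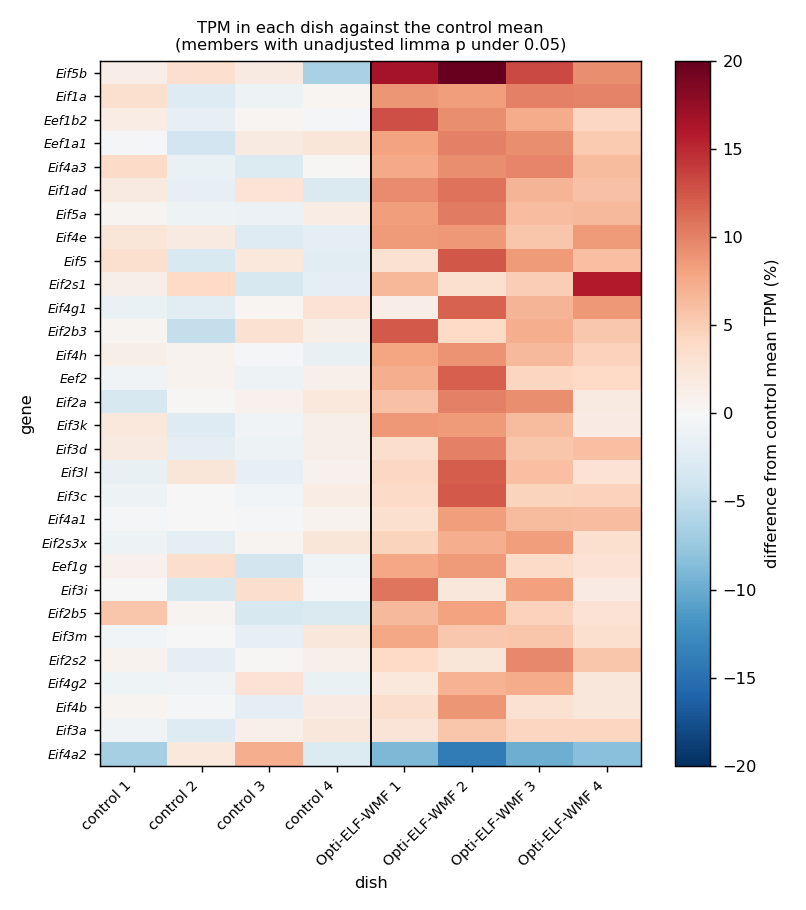
Difference (%) of TPM in each of the 8 dishes from the control mean, for the 30 members with an unadjusted limma p under 0.05, ordered by their difference on the log2 scale, with control dishes left of the line and colours limited to 20% either way. Eif5b at the top has the darkest exposed dishes, Eif4a2 at the bottom is blue in all 4, and exposed replicate 2 is the darkest dish for many genes.

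Members with and without the E-box were also counted. Of 52 tested members with RefSeq windows, 8 of the 14 with an E-box and 16 of the 38 without one had higher values at an unadjusted limma p under 0.05. Their median differences were 0.09 and 0.06. Higher values at this p were found for 12% of all tested genes and 38.2% of those with a mean TPM of at least 100. Both counts are those of TPM as deposited and were not repeated under the other scalings. The E-box comparison is a description of a list and was not tested.

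Further genes of translation were taken from 7 lists of 59 genes, all of them tested. Higher values with an unadjusted limma p under 0.05 were found for 16 genes and lower values for 0, against 12% and 3.65% of all tested genes, the median difference was 0.04 beside 0.03 for all tested genes, and no gene passed the adjusted threshold. Under the 3 other scalings 5 to 8 were higher and 1 to 3 lower at this p. The eIF2 alpha phosphatase list had 4 of 6 such genes, which became 2 of 6 after median-of-ratios or upper-quartile scaling and 3 of 6 after rescaling without mitochondrial genes, with all 6 higher by sign each time. Among these, Ppp1r15a, the inducible subunit that directs the phosphatase to eIF2, was at 15.3, 16.2, 15.1 and 16.3 TPM in control dishes and 17.4, 17.4, 17.6 and 18.8 TPM in exposed dishes without overlap (limma with Benjamini-Hochberg adjusted p = 0.139). Nck1, an adaptor listed with it, was at 40.5 ± 0.72 and 45.6 ± 0.78 TPM (SD, n = 4).

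The list of mTORC1 and its kinases had 0 of 12 genes with an unadjusted limma p under 0.05 and a median difference of 0.01, which became negative with all 3 other scalings. Termination and recycling had 3 of 6 (Etf1, Gspt1 and Pelo), poly(A) binding 3 of 8 (Pabpc1, Pabpc4 and Larp1), helpers of initiation 3 of 9 (Abcf1, Ddx3x and Denr), hypusine and diphthamide synthesis 1 of 9 (Dph6) and mitochondrial translation factors 2 of 9 (Tufm and Mrrf). Each of these shares is read against the 12% of all tested genes. Under the 3 other scalings poly(A) binding had 1 such gene each time. Helpers of initiation had 2 after median-of-ratios scaling and 1 under the others, with 1 gene lower at this p each time. The mitochondrial list had 0 such genes under each. Termination had 0 after upper-quartile scaling and 2 under the others. After upper-quartile scaling the mitochondrial and termination lists each had 1 gene lower at this p.

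The 7 members below the limit for testing were Eef1a2, Eef1akmt3, Eif2s3y, Eif4e1b, Eif4e3, Eif4ebp3 and Eif2c5. Eif4e1b, the eIF4E form of egg cells, was listed at 0 in every dish. Eif4e3, another cap-binding relative, had means of 0.41 and 0.51 TPM, Eif4ebp3 of 0.35 and 0.27 TPM and Eef1akmt3 of 0.22 and 0.16 TPM in control and exposed dishes. Eif2c5 carries a name of the Argonaute series and belongs to none of the roles above.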

How the data were processed

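RNA of AML12 cells was sequenced by the authors with a stranded poly(A) kit, and 1 table of TPM values per dish was deposited for 55401 genes. The submitters' processing notes name Trimmomatic 0.39, STAR 2.7.4a, RSEM 1.3.3 and the mm10 build. The annotation and strand setting are not given in the sources used here. TPM sums to 1000000 in each dish and keeps no depth, so count tests, intervals and detection floors were not used.

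Genes with TPM of at least 1 in at least 4 of the 8 dishes (12122) were compared as log2(TPM + 1) by limma 3.58.1 under R 4.3.3 (lmFit, then a trended eBayes), and p-values were adjusted by Benjamini-Hochberg over all tested genes. Groups came from the treatment labels. For paralog shares an exact two-sided permutation test over dishes was used. Values per dish are given for the 8 most abundant members, the 12 smallest p-values in each direction under 0.05, both genes of each paralog comparison, the eIF2 subunits and the eIF4F genes, and Ppp1r15a and the sequences shown were chosen after their values were seen. Members and lists were chosen with earlier results of these data known. The promoter motifs, the limit of 100 TPM, the ribosomal protein comparison and counts by dish were chosen after the data were examined.

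Positions are those of GENCODE M21 (GRCm38), where 72 of 72 members were found. A transcript of 200 bases or more counted as a near-identical copy when blastn 2.17.0 aligned 80% or more of it with an identity of 95% or more. The fit was tested on simulated data of 12122 genes: of 91 genes changed by 1 on the log2 scale 94.5% passed the adjusted threshold, and of 109 changed by 0.1 only 3.67%, with 6 false calls. Alternatives covered the pseudocount, the filter, 3 scalings, limma without trend, a replicate block and each dish left out.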

Additional observations from a re-analysis of the deposited data

Results flagged for a closer look

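In each group of 4 dishes, a dish was looked at again where its gap to the nearest other dish was, as a share of the group's whole range, above Dixon's critical value at the 95% level. Of 138 groups 6 met this, and chance gives about 6.9. Eif2ak2, the kinase that senses double-stranded RNA, was at 21.04 TPM in exposed replicate 1 and between 24.76 and 25.23 TPM in the other exposed dishes. Eif3c, an eIF3 core subunit, was at 378.42 TPM in exposed replicate 2 and between 350.03 and 352.8 TPM in the others. Eif4e, the cap-binding factor, was at 172.72 TPM in exposed replicate 3 and between 177.36 and 177.61 TPM in the others. Eif4enif1 was at 49.78 TPM in control replicate 1 and between 46.99 and 47.39 TPM in the other controls. Eif4g2 was at 731.09 TPM in control replicate 3 and between 700.72 and 705.84 TPM in the others. Eif5a2 was at 3.1 TPM in control replicate 1 and between 2.98 and 2.99 TPM in the others.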

How the results depend on the processing

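Scaling moved the counts. Members higher at an unadjusted limma p under 0.05 numbered 17 with median-of-ratios scaling, 15 with upper-quartile scaling and 16 rescaled without mitochondrial genes, against 29, and these were among the 29. Non-overlapping and higher members numbered 12, 10 and 12, against 20. The median log2 difference of members was 0.037 with upper-quartile and 0.041 with rescaled values, against 0.07, and the median of all genes moved from 0.03 to between -0.0053 and 0.0050. For genes with a mean TPM of at least 100 the median was 0.024 with upper-quartile and 0.029 with rescaled values, against 0.058. Without 1 dish, the counts of higher members by p and by overlap ranged from 23 to 31 and from 21 to 26, where fewer dishes make overlap less likely. Of the 29 members, 19 kept an unadjusted p under 0.05 whichever dish was left out, and all 29 stayed higher. These 29 were chosen as higher in the same dishes, so their staying higher is no separate support. The count lower was 1 to 1 by p and 1 to 1 by overlap, and the count with an adjusted p under 0.05 was 0 to 0. The median ranged from 0.060 to 0.077 and the summed share difference from 0.159 to 0.201 percentage points. Without 1 dish the share difference ranged from -2.32 to -1.72 points for Eif4a2, from -0.0167 to 0.580 for Eif1b, from -0.0143 to -0.00811 for Eif5a2, from -0.0904 to -0.00752 for Eif2s3y, from -0.000241 to 4.32e-06 for Eef1a2 and from -0.701 to 0.615 for Eif4ebp2, which was also positive at 0.130 without control replicate 3. The unadjusted limma p of Eif4a2 was 0.00105 to 0.0158 over 16 alternatives.

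Small differences turned sign, and the cause was not tested. With median-of-ratios scaling the log2 difference was -0.012 for Eef1akmt4, -0.0033 for Eif2ak3, -0.0065 for Eif2d, -0.020 for Eif3j1 and -0.013 for Eif5a2. With upper-quartile scaling it was -0.022 for Eef1akmt4, -0.014 for Eif2ak3, -0.0047 for Eif2b4, -0.017 for Eif2d, -0.031 for Eif3j1, -0.0085 for Eif4g3 and -0.021 for Eif5a2. Rescaled, it was -0.019 for Eef1akmt4, -0.010 for Eif2ak3, -0.00087 for Eif2b4, -0.013 for Eif2d, -0.027 for Eif3j1, -0.0046 for Eif4g3 and -0.019 for Eif5a2. Without 1 dish, the log2 difference ranged from -0.076 to 0.064 for Eef1akmt2, from -0.016 to 0.030 for Eef1akmt4, from -0.049 to 0.014 for Eef1e1, from -0.066 to 0.0013 for Eef2k, from -0.046 to 0.051 for Eef2kmt, from -0.11 to 0.053 for Eif1ax, from -0.0060 to 0.052 for Eif2b4, from -0.016 to 0.026 for Eif3j1, from -0.094 to 0.035 for Eif4a3l1 and from -0.0086 to 0.026 for Eif5a2.

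Dishes of the same replicate number had correlations between -0.042 and 0.026, and none correlated best with its own number. With 4 dishes a group this cannot exclude that the numbers pair the dishes. With the number as a replicate block 29 members were higher at an unadjusted p under 0.05, 28 of them the same genes, and the block gave an exact p of 0.125 for the Eif4a2 share, the smallest that 4 pairs allow. The pseudocount, both filters and the fit without trend, which gave 23 members higher at this p, turned no sign. Depth is unknown, and the simulation recovered few changes of 0.1, a size that most differences here did not reach.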
